A study of Mus musculus with 12 samples.

Results

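The interferon response genes described here are 44 mouse genes that cells are known to switch on when interferons signal, together with the factors that relay that signal. They were measured in a study of bone marrow cells lacking the transcription factors FoxO1, FoxO3 and FoxO4. The members were chosen by name, and all probe sets that the platform annotation pairs with one of them alone were taken. That gave 71 probe sets for 42 of the 44 genes, out of 45101 probe sets and 18193 named genes on the array. Isg15, the ubiquitin-like antiviral modifier, has a probe set that the annotation also gives to Gm9706, and none was paired with Ifi44, so neither has a value here. Mx2 was not above background on any of the 12 arrays, and 41 members were tested.

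The study has 4 groups of 3 Affymetrix mouse genome arrays. FoxO-deficient LSK cells (arrays 4 to 6) and wild-type LSK cells (arrays 1 to 3) are bone marrow fractions enriched for hematopoietic stem cells. FoxO-deficient myeloid progenitors (arrays 10 to 12) and wild-type myeloid progenitors (arrays 7 to 9) are the cells below them on the myeloid path. All mice carried floxed alleles written as FoxO1/O3/O4 LoxP/LoxP. The deficient groups were Mx-Cre+ and the wild-type groups Mx-Cre-, and age and strain are not given in the sources used here. Mx-Cre is a Cre recombinase transgene driven by the promoter of Mx1, itself an interferon response gene. Whether, how and when Cre was induced, and whether the wild-type mice received the same treatment, is also not given there. Effects of the transgene or of its induction and effects of FoxO loss on these genes therefore cannot be told apart. Cells came from pooled mice and the labelling was done in triplicate, so the spread between arrays may be technical.

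Interferons are secreted proteins that warn cells of infection. Type I interferons bind the receptor chains Ifnar1 and Ifnar2 and act through a complex that holds Stat2 and Irf9 and binds interferon-stimulated response elements, while interferon gamma acts mainly at a palindromic STAT site. The target genes include sensors of foreign RNA, enzymes that block viral growth, GTPases that attack vacuoles holding microbes, and genes of antigen presentation. Hematopoietic stem cells are known to express part of this programme without infection, and interferon can drive them into division.

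The promoters of 6 members show the elements through which the pathway acts. They are given as RefSeq windows of GRCm38.p6 covering 250 bases before the transcription start and 50 bases from it on, 5′ to 3′ on the strand of the gene. Igtp, Irgm1 and Gbp2 stand for the interferon-inducible GTPases, Ifitm3 for the effectors bright in LSK cells, and Cxcl10 and Irf1 for the members that were lower in FoxO-deficient myeloid progenitors. Capitals mark a response element core (GAAANNGAAA) or a STAT site core (TTCNNNGAA), each searched on both strands with overlaps allowed.
Igtp, chr11:58199306-58199605, plus strand: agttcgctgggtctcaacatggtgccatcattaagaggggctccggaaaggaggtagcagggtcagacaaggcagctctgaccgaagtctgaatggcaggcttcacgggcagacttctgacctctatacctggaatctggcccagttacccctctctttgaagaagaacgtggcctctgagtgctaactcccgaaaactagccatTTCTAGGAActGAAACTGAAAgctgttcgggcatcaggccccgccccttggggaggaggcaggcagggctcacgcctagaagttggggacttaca
Irgm1, chr11:48871371-48871670, minus strand: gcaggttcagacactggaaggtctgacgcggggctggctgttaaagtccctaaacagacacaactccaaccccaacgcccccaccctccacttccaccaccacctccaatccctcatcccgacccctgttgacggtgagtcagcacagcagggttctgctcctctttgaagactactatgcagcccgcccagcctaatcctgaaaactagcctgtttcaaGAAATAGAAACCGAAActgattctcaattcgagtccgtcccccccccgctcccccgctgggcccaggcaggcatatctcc
Gbp2, chr3:142620413-142620712, plus strand: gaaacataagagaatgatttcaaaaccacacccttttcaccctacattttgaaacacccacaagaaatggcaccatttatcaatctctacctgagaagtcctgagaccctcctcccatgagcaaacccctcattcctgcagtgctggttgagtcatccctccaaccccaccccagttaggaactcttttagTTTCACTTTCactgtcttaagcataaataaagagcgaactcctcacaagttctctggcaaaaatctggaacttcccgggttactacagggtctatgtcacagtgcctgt
Ifitm3, chr7:141010695-141010994, minus strand: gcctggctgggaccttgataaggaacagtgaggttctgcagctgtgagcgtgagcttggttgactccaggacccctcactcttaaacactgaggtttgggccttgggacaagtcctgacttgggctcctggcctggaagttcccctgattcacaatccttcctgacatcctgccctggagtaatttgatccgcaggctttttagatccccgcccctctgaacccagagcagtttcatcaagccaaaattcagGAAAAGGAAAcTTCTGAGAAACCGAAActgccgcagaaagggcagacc
Cxcl10, chr5:92348840-92349139, minus strand: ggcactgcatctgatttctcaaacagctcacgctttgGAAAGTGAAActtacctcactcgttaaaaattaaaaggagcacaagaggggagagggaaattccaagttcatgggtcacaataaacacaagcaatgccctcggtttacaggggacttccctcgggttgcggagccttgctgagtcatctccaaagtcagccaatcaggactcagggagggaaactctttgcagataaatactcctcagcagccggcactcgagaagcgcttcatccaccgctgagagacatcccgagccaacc
Irf1, chr11:53769764-53770063, plus strand: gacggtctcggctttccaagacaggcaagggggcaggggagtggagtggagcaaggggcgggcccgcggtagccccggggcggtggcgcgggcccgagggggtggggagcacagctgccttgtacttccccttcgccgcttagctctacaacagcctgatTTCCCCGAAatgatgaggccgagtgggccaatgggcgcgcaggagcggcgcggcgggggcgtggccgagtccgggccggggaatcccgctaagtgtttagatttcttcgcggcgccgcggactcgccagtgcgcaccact

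Promoter windows were found for 34 of the 44 members. A response element core stood in the windows of 17 of these 34 genes, against 3.99% of all 27025 genes in the table. In Igtp and Irgm1 the cores lie close before the start, in Gbp2 the core is on the opposite strand, and in Ifitm3 both cores lie just after the start, the second overlapping a STAT site core. The Cxcl10 core lies farther upstream. The Irf1 window shown holds a STAT site core and no response element core. A STAT site core stood in the windows of 11 of the 34 genes (32.4%), against 9.55% of all genes. The forkhead core that FoxO factors bind (GTAAACA, both strands) stood in 3 of the 34, Gbp3, Ifitm1 and Rsad2 (8.82%), against 4.05% of all genes. Each match is a run of letters and not a measured site of binding.

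The values are array intensities after quantile normalization, and group means are antilogs of the mean log2 value of 3 arrays. A background limit, the brightest of 27 bacterial control probe sets on each array, lay between 5.14 and 13.0. Array 2, of wild-type LSK cells, differed from the rest in its control probes. Its 3′ to 5′ intensity ratio, which is known to rise with RNA degradation, was 344 for Gapdh and 145 for Actb, against 1.77 to 2.37 and 2.74 to 3.36 on the other arrays. It lay above all 5 other LSK arrays in 21 of the 41 tested members (51.2%) and in 39.8% of all tested genes, so the member counts, and the members whose call it changes, are given with and without it. The targeted gene Foxo4 measured 85.8 in FoxO-deficient and 393 in wild-type LSK cells, and 59.9 in FoxO-deficient and 330 in wild-type myeloid progenitors. Foxo1 measured 27.2 in FoxO-deficient LSK cells, against 104 in wild-type LSK cells and 65.4 there without array 2. In myeloid progenitors it measured 12.5 in FoxO-deficient and 23.4 in wild-type cells, and the groups overlapped. Foxo3 was not lower in the deficient groups (2828 against 2421, and 2414 against 1860), and where its probes lie relative to the deleted part is not known here. Kit, a marker of both sorted populations, lay between 331 and 450 in the 4 groups, the lowest being wild-type LSK cells, at 473 without array 2.

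Over the 41 tested members, interferon response genes were brighter in LSK cells than in myeloid progenitors. Among myeloid progenitors they were brighter on the FoxO-deficient arrays. Each member was set against its own mean over the 12 arrays, and the median of these log2 deviations was taken for each array. The medians were 0.38, 0.50 and 0.45 in FoxO-deficient LSK cells, against 0.34, 0.79 and 0.37 in wild-type LSK cells. They were -0.19, -0.18 and -0.17 in FoxO-deficient myeloid progenitors, against -0.47, -0.43 and -0.52 in wild-type myeloid progenitors. The 2 groups of myeloid progenitors did not overlap. The 2 groups of LSK cells overlapped only through array 2, the highest of all. Wild-type LSK arrays 1 and 3 (0.34 and 0.37) lay below every FoxO-deficient LSK array, though the nearest of these was at 0.38. Over all tested genes the same medians lay between -0.01 and 0.16. In bulk samples, fewer cells of an expressing type and less RNA per cell cannot be told apart.

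**Figure D1:**
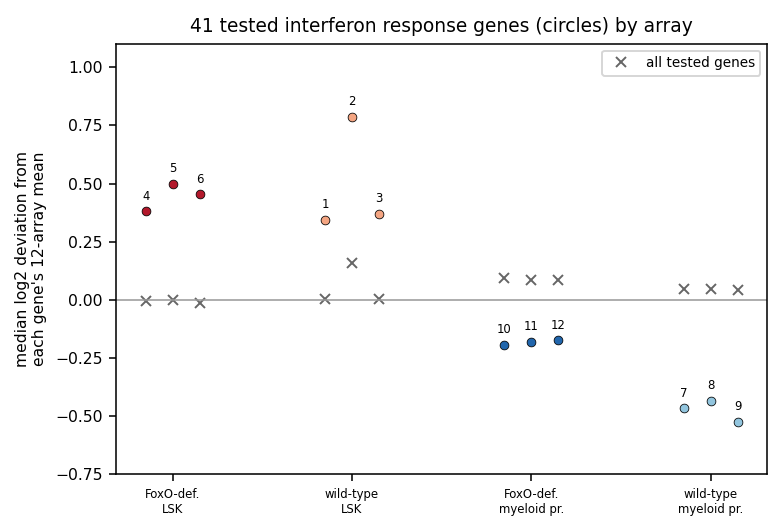
Median log2 deviation of the 41 tested interferon response genes (circles) and of all tested genes (crosses) from each gene's 12-array mean, one point per array, with array numbers above the circles. All FoxO-deficient myeloid progenitor arrays (-0.19 to -0.17) lie above all wild-type ones (-0.52 to -0.43), and wild-type LSK array 2 is highest at 0.79.

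The first question was what FoxO deficiency did to these genes in myeloid progenitors. Of the 41 members, 32 (78%) had a higher mean in FoxO-deficient than in wild-type cells, against 53.8% of all tested genes. The median log2 change was 0.31 for the members, with quartiles of 0.02 and 0.66, and 0.04 for all genes. All 3 deficient arrays lay above all 3 wild-type arrays for 19 members (46.3%), against 18.2% of all genes, and below them for 3 members, against 12.6%. Few of these differences passed the test. With limma and Benjamini-Hochberg adjustment over 13732 genes, 1 member was called higher (0.757% of all genes were) and 2 were called lower (1.09% of all genes were), 3 in all against 1.84%. At an unadjusted p under 0.05 the counts were 14 higher and 3 lower, against 7.74% and 5.2% of all genes.

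The calls depended on array 2, which is not part of this comparison but enters the shared estimate of spread. Without wild-type LSK array 2, 10 members were called higher (5.36% of all genes were) and 3 lower (3.53%). The 10 were Trim25, Oas2, Ifitm3, Gbp2, Igtp, Irgm1, Ifi47, Rtp4, Parp9 and Parp14, and the 3 were Irf1, Isg20 and Cxcl10. The median change stayed at 0.31. When only the 6 myeloid progenitor arrays were fitted, 3 members were called higher and 2 lower, 12.2% of members against 4.69% of all genes. Of the members, 15 also had other probe sets above the filter, 23 in number. In myeloid progenitors 15 of the 23 changed in the direction of the chosen one and 8 in the opposite direction, and in LSK cells 14 and 9 did.

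Cxcl10, a chemokine that draws activated T cells and a target of both interferon types, was 1 of the 2 members called lower. It measured 5.25, 3.10 and 5.35 on the FoxO-deficient arrays, against 68.5, 85.1 and 56.6 on the wild-type arrays. The deficient arrays were all at background and the wild-type arrays all well above it. Cxcl10 fell at least 7.45-fold, with group means of 4.44 and 69.1 (limma adjusted p = 0.0012). Irf1, the transcription factor that interferon gamma induces through the STAT site printed above, measured 150.0, 155 and 147 on the FoxO-deficient arrays, against 323, 334 and 273 on the wild-type arrays. The groups lay far apart relative to their spread, and Irf1 fell by 1.04 ± 0.15 on the log2 scale (SE, n = 3 each, limma adjusted p = 0.00764). Both calls held in all 12 fits that left out an array. Isg20, an exonuclease that degrades viral RNA, was the remaining member with all deficient arrays lower. Its values were 143, 136 and 146 in FoxO-deficient and 202, 192 and 191 in wild-type cells, a log2 change of -0.46 ± 0.14 that did not pass (limma adjusted p = 0.159), and passed without array 2 (limma adjusted p = 0.00857).

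Among the RNA sensors and RNA-binding enzymes, 9 of 11 members had higher means in FoxO-deficient myeloid progenitors, with a median log2 change of 0.37. Oas2, which makes the messenger that activates RNase L, was the only member called higher. It measured 6.99, 7.15 and 10.4 in FoxO-deficient and 1.62, 3.21 and 2.56 in wild-type cells, so 1 of 3 deficient arrays and no wild-type array exceeded the background limit. The log2 change was 1.77 ± 0.33 (limma adjusted p = 0.0284), no fold is given so close to background, and the call was lost in 6 of the 12 fits that left out an array, those without array 6, 7, 9, 10, 11 or 12. It was also lost with an offset of 16 or 32 before the logarithm, with log2 changes of 0.40 and 0.23. Trim25, the ubiquitin ligase that activates the RNA sensor RIG-I, measured 972, 1009 and 1165 in FoxO-deficient and 694, 689.9 and 588 in wild-type cells. The groups did not overlap, with a log2 change of 0.67 ± 0.15 and a limma adjusted p of 0.0586. Of its other probe sets, one measured 318 against 197, and the dimmest one 6.47 against 9.10. Ddx58, which encodes RIG-I, had group means of 25.7 and 16.3, and Eif2ak2, the kinase PKR that halts translation on double-stranded RNA, had 196 and 142. Neither passed (limma adjusted p = 0.394 and 0.246), although all deficient arrays were above all wild-type ones for both. A second Ddx58 probe set overlapped between the groups, with a log2 change of -0.09. Ifih1, the sensor MDA5, had nearly equal means of 72.1 and 74.3, and Oasl1, of the same family as Oas2, had the lowest change of the group at -0.59.

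All 6 interferon-inducible GTPases had higher means in FoxO-deficient myeloid progenitors, with a median log2 change of 0.89, the highest of the 6 role groups. None passed with all arrays, and 4 of the 6 passed without array 2. Igtp (Irgm3), which acts at vacuoles and lipid droplets, measured 149, 118 and 132 in FoxO-deficient and 52.6, 50.3 and 50.3 in wild-type cells. The groups were far apart, yet the log2 change of 1.37 ± 0.49 had a limma adjusted p of 0.253. The shared estimate of spread includes an Igtp value of 505 on array 2, and without that array the change was 1.37 ± 0.13 (limma adjusted p = 0.000514). Ifi47, another GTPase of the family, measured 361, 327 and 319.9 in FoxO-deficient and 197, 173 and 154 in wild-type cells, again without overlap. Its log2 change was 0.95 ± 0.28 with array 2 (limma adjusted p = 0.15) and 0.95 ± 0.13 without it (limma adjusted p = 0.00425). Irgm1, which regulates the other GTPases and is needed for stem cell maintenance in mice, measured 64.9, 64.5 and 50.9 in FoxO-deficient and 38.1, 35.4 and 45.9 in wild-type cells. Its log2 change of 0.59 ± 0.29 passed only without array 2 (limma adjusted p = 0.0457 against 0.432 with it). Gbp2, a guanylate-binding protein, measured 18.4, 27.8 and 26.7 in FoxO-deficient and 10.5, 15.9 and 14.7 in wild-type cells, a log2 change of 0.82 ± 0.27, and its second probe set gave 0.34. Iigp1 (Irga6) was near background, with 13.1, 11.1 and 6.85 in FoxO-deficient and 0.782, 5.77 and 1.59 in wild-type cells. Its log2 change of 2.37 ± 0.60 did not pass (limma adjusted p = 0.0928), and its second probe set gave 0.78. Gbp3 overlapped between the groups, with means of 128 and 106.

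The group of other interferon-induced genes also lay above 0 throughout in myeloid progenitors, with 6 of 6 tested members and a median log2 change of 0.52. Rtp4, a chaperone of receptors that limits interferon responses, measured 22.8, 18.6 and 32.7 in FoxO-deficient and 10.2, 6.64 and 9.03 in wild-type cells. No wild-type array exceeded background, so FoxO-deficient cells were at least 2.39-fold higher, with a limma adjusted p of 0.0666, and of 0.00527 without array 2. Its second probe set pointed the same way (10.2 against 2.18). Parp9, a partner of the ligase Dtx3l in interferon signalling, measured 59.1, 72.8 and 93.8 in FoxO-deficient and 32.8, 36.5 and 43.6 in wild-type cells. The groups did not overlap, with a log2 change of 0.98 ± 0.23 (limma adjusted p = 0.0666, and 0.0288 without array 2). Parp14, an ADP-ribosyltransferase of the same family, measured 103, 112 and 98.4 in FoxO-deficient and 75, 69.1 and 60.3 in wild-type cells. Its log2 change was 0.62 ± 0.19 (limma adjusted p = 0.182, and 0.0288 without array 2). A second Parp14 probe set gave 0.07. Xaf1, Ifi27 and Ifi35 had log2 changes of 0.43, 0.27 and 0.07, and none passed.

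The antiviral effectors were divided in myeloid progenitors, with 7 of 10 tested members above 0 and a median log2 change of 0.18. Ifitm3, a membrane protein that blocks virus entry, measured 593, 568 and 566 in FoxO-deficient and 468, 420.4 and 415 in wild-type cells. The change was small and without overlap, at 0.41 ± 0.13 on the log2 scale (limma adjusted p = 0.19, and 0.0203 without array 2). Its relative Ifitm1 had means of 309.9 and 210.2. Mx1, the antiviral dynamin whose promoter drives the Cre transgene, measured 16.9, 12.9 and 16 in FoxO-deficient and 9.10, 7.69 and 1.72 in wild-type cells. All deficient arrays were higher, but the wild-type values scattered around background and the log2 change of 1.62 ± 0.58 did not pass (limma adjusted p = 0.257). Ifit2, which binds viral RNA, had means of 73.4 and 52.7 without overlap. Its relatives Ifit1 and Ifit3 and the radical enzyme Rsad2 (viperin) had log2 changes of 0.02, -1.32 and -0.71 with overlapping groups. Bst2 (tetherin) and Samhd1, a nucleotide hydrolase, also overlapped, with log2 changes of 0.32 and 0.05.

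Among the signalling factors, Irf1 alone changed in myeloid progenitors. Stat2, Irf9 and Irf7, the other transcription factors of the list, had log2 changes of -0.09, 0.17 and -0.20, and Usp18, the protease that shuts off the type I receptor, had 0.01. Irf7 was dim in all groups, with means of 4.33 in FoxO-deficient and 4.96 in wild-type cells. In antigen presentation, the peptide transporter Tap1 had means of 159.8 and 129, and Tapbp (tapasin), which bridges it to class I molecules, had 2432 and 2189.6. For both, all deficient arrays were above all wild-type ones, and neither passed (limma adjusted p = 0.846 and 0.938).

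**Figure D2:**
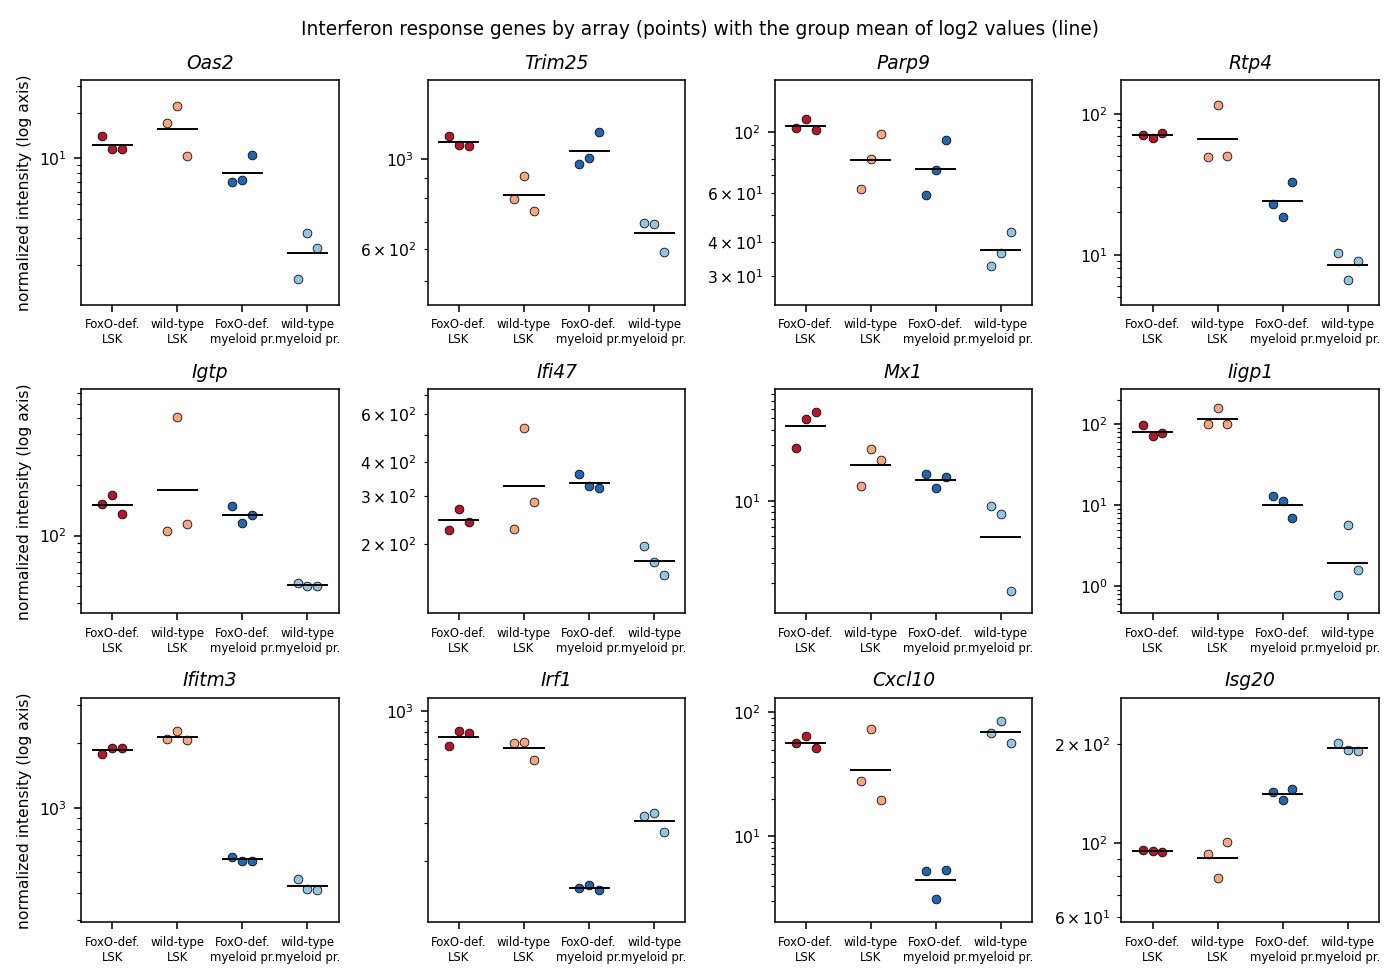
Normalized intensity (log axis) of 12 interferon response genes on each array (points), with the group mean of log2 values as a line, for FoxO-deficient and wild-type LSK cells and FoxO-deficient and wild-type myeloid progenitors. Cxcl10, Irf1 and Isg20 are lower on all FoxO-deficient myeloid progenitor arrays and the other 9 genes higher, while Igtp on wild-type LSK array 2 (505) stands far from the other 2 arrays of its group.

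The same question in LSK cells gave no call. None of the 41 members passed, where 0.269% of all tested genes did, and at an unadjusted p under 0.05 there was 1 member higher (Trim25, against 5.11% of all genes) and 1 lower (Parp14, against 6.34%). The median log2 change was 0.00068 for the members and -0.04 for all genes, with 21 members above 0 (51.2%, against 47.1% of all genes) and 20 below. All FoxO-deficient arrays lay above all wild-type arrays for 5 members, Irf7, Trim25, Mx1, Xaf1 and Parp9, which is 12.2% against 7.77% of all genes. They lay below for another 5, Ifih1, Eif2ak2, Ifitm3, Iigp1 and Parp14, against 9.06% of all genes. Without array 2 the member counts were 13 higher and 7 lower, against 16.2% and 17.7% of all genes, and again none was called.

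Trim25 measured 1138, 1086 and 1079 in FoxO-deficient LSK cells, against 797, 909.8 and 744 in wild-type LSK cells. The groups did not overlap, with a log2 change of 0.43 ± 0.15 that did not pass (limma adjusted p = 0.335, and 0.0834 without array 2). Its second probe set gave 324 in FoxO-deficient and 143 in wild-type LSK cells, or 227 in wild-type cells without array 2, and the dimmest gave 2.60 against 5.88. Parp14 measured 126, 169.5 and 135 in FoxO-deficient and 182, 270.0 and 199.9 in wild-type LSK cells, lower on all deficient arrays, with a log2 change of -0.59 ± 0.19 (limma adjusted p = 0.31). Its second probe set went the other way (68.0 against 22.8, a log2 change of 1.57), so the direction of Parp14 in LSK cells depends on the probe set. Xaf1, a pro-apoptotic factor, measured 221, 231 and 211 in FoxO-deficient and 193, 106 and 175 in wild-type LSK cells. Parp9 measured 104, 112 and 102 in FoxO-deficient and 62.2, 80.3 and 98.9 in wild-type LSK cells. Both were higher on all deficient arrays without passing (limma adjusted p = 0.473 and 0.506).

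Mx1 measured 28.0, 49.7 and 57.2 in FoxO-deficient and 13.4, 27.6 and 22.4 in wild-type LSK cells, which barely separates the groups. Its log2 change of 1.09 ± 0.58 did not pass (limma adjusted p = 0.503). Irf9 measured 237, 303 and 198 in FoxO-deficient and 301, 418 and 294 in wild-type LSK cells. Eif2ak2 measured 187, 159.9 and 192 in FoxO-deficient and 218, 202 and 240.0 in wild-type LSK cells. Irf9 overlapped and Eif2ak2 did not, and both had lower means in deficient cells (limma adjusted p = 0.47 and 0.518). Ifih1 measured 73.1, 73.8 and 64.6 in FoxO-deficient and 74.3, 383 and 92.7 in wild-type LSK cells, and Ifitm1 measured 1548, 1616 and 1372 in FoxO-deficient and 1555, 2709.7 and 1823 in wild-type LSK cells. In both, array 2 held the highest value, and without it the log2 changes were -0.24 and -0.15, against -0.97 and -0.39 with it. Cxcl10 measured 56.7, 64.6 and 51.2 in FoxO-deficient and 28.2, 73.1 and 19.6 in wild-type LSK cells. Here too array 2 was the exception, and the log2 change was 0.74 ± 0.43 with it and 1.29 ± 0.28 without it (limma adjusted p = 0.0767).

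The GTPases all had lower means in FoxO-deficient LSK cells, with a median log2 change of -0.34, but this direction rested on array 2. Igtp measured 153, 173 and 134 in FoxO-deficient and 107, 505 and 117 in wild-type LSK cells, and Ifi47 measured 226, 269 and 240.3 in FoxO-deficient and 227, 534 and 285 in wild-type LSK cells. Without array 2, 3 of the 6 GTPases were above 0 and 3 below, with a median of 0.02. The Igtp log2 change was then 0.45 and that of Ifi47 -0.06, against -0.28 and -0.41 with the array. No GTPase passed in either fit.

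**Figure D3:**
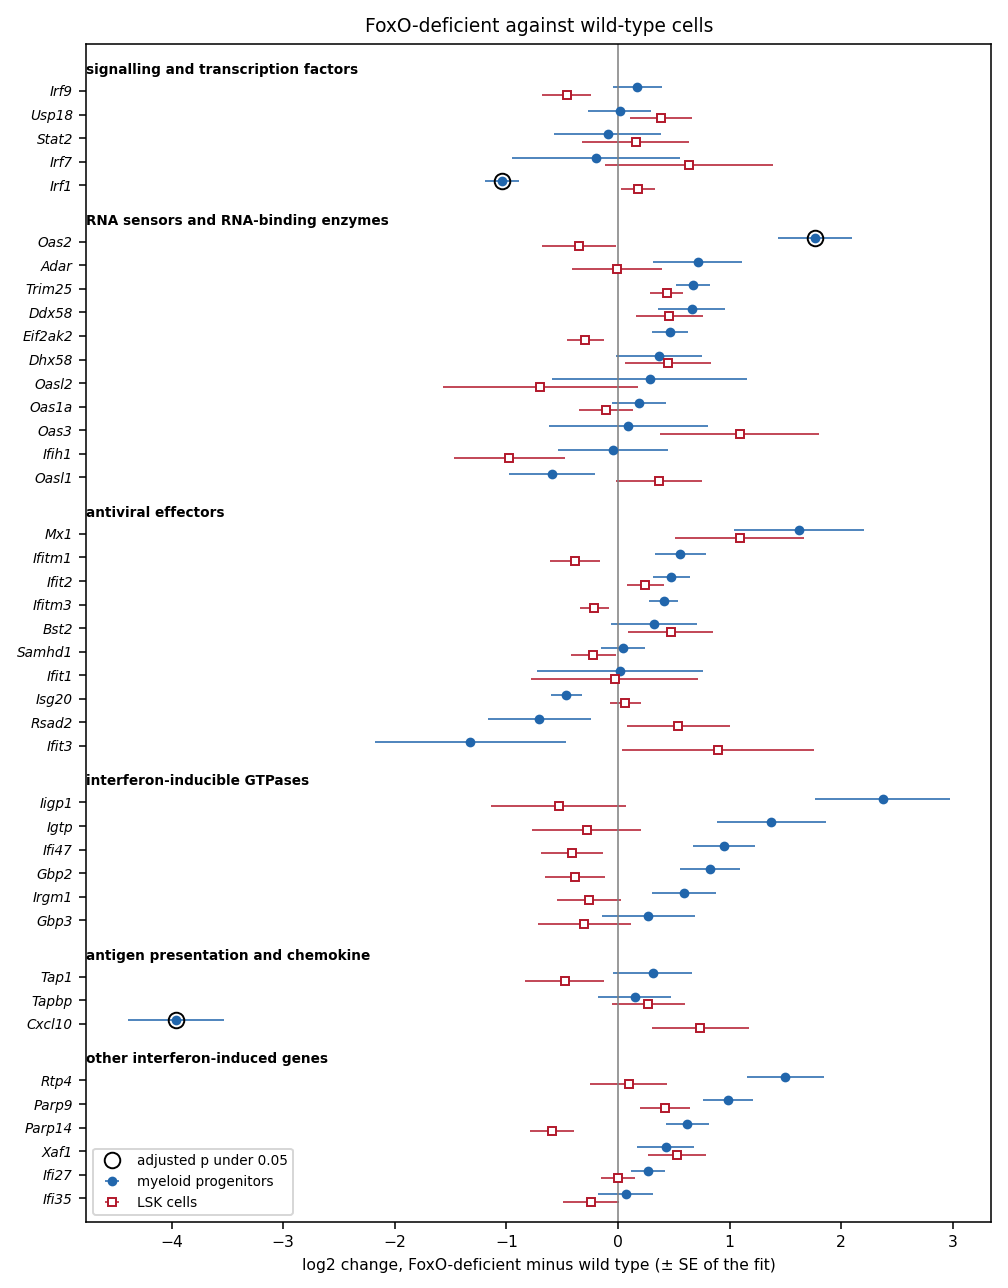
Log2 change of each of the 41 tested interferon response genes, FoxO-deficient minus wild type, in myeloid progenitors (filled blue circles) and LSK cells (open red squares), with bars of 1 standard error and rings where the limma adjusted p is under 0.05. In myeloid progenitors 32 of 41 genes lie above 0 and 3 are ringed (Irf1, Oas2 and Cxcl10), while in LSK cells 21 lie above 0 and none is ringed.

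Whether the FoxO effect differed between the cell types was tested as an interaction, the effect in myeloid progenitors minus that in LSK cells. Irf1 and Cxcl10 passed, both with a lower effect in myeloid progenitors (2 members lower, where 0.568% of all genes were, and 0 higher, where 0.291% were, or 0.859% in all). The difference was -1.22 ± 0.21 for Irf1 (limma adjusted p = 0.0323). For Cxcl10 it was -4.70 ± 0.61 (limma adjusted p = 0.00647), but with the deficient myeloid progenitors below background its size depends on the scale and ran from -5.33 to -1.87 over 9 other settings. The Cxcl10 call held in those 9 and in all 12 fits that left out an array. That of Irf1 held only in the fit without wild-type LSK array 2, and the adjusted p over the 12 fits ran from 0.00792 to 0.109, with a difference between -1.30 and -1.13. At an unadjusted p under 0.05, 10 members had a higher effect in myeloid progenitors and 3 a lower one, against 6.31% and 4.33% of all genes. The difference lay above 0 for 27 members (65.9%, against 54.5% of all genes), with a median of 0.30 for the members and 0.07 for all genes. Without array 2, Ifitm3, Igtp, Ifi47 and Parp14 were also called, all with a higher effect in myeloid progenitors (1.77% of all genes were), and the differences were 0.56 ± 0.12, 0.93 ± 0.19, 1.01 ± 0.20 and 1.05 ± 0.21.

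Averaged over both cell types, Trim25 was called higher (0.896% of all genes were) and Cxcl10 lower (0.961% were), 2 in all against 1.86%. At an unadjusted p under 0.05 the average was higher for 8 members and lower for 2, against 7.27% and 6.55% of all genes. The average lay above 0 for 27 members, against 50.5% of all genes. The average log2 change of Trim25 was 0.55 ± 0.11 (limma adjusted p = 0.0306), and each FoxO-deficient array lay above each wild-type one in LSK cells and in myeloid progenitors. This was so for 3 members, Trim25, Mx1 and Parp9 (7.32%, against 2.68% of all genes), and no member was lower on all deficient arrays in both (1.74% of all genes were). The Trim25 call held in 1 of the 12 fits that left out an array, the one without wild-type LSK array 2 (0.59 ± 0.08, limma adjusted p = 0.00469), and the mean over all 3 Trim25 probe sets gave 0.22. The average of Cxcl10 was -1.61 ± 0.31 (limma adjusted p = 0.0302) over effects of opposite sign. It ran from -1.81 to -1.35 over the 12 fits that left out an array, of which the 3 without a wild-type LSK array called it, and from -1.71 to -0.56 over 9 other settings, of which 6 called it. Without array 2, Irf1 and Isg20 were also called lower (3.15% of all genes were) and Igtp, Ifi47, Rtp4 and Parp9 higher (3.79%).

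The larger contrast lay between the cell types. In wild-type cells, 34 of 41 members had lower means in myeloid progenitors than in LSK cells and 7 had higher ones (50.8% of all genes had). The members had a median log2 difference of -1.02 (quartiles -1.99 and -0.22), against 0.02 for all genes. Of the members, 21 (51.2%) passed as lower, where 11.5% of all genes did, and 1 passed as higher, where 9.95% did, 22 in all (53.7%) against 21.4%. All myeloid progenitor arrays lay below all LSK arrays for 24 members (58.5%), against 17.6% of all genes, and above them for 4, against 18.2%. Without array 2, 22 were called lower (16.6% of all genes were) and 2 higher (18.4%), with a median of -0.86. Ifit1 and Mx1 then lost their call, and Oas3, Tap1 and Tapbp gained one as lower. Of the 23 other probe sets, 16 differed in the direction of the chosen one and 7 in the opposite direction. In FoxO-deficient cells 15 members were called lower (9.39% of all genes were) and 1 higher (10.2%), and 12 members lay above 0 (55.7% of all genes did), with a median of -0.52 against 0.11 for all genes. All FoxO-deficient myeloid progenitor arrays lay below all FoxO-deficient LSK arrays for 24 members (22.4% of all genes) and above them for 6 (30% of all genes). Array 2 enters this comparison through the shared spread alone, and without it 16 were called lower (16.1% of all genes were) and 4 higher (22.3%), with Parp14 gained as lower and Stat2, Irgm1 and Ifi47 as higher. These 2 comparisons share no array, and the difference between them is the interaction given above.

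Ifitm3 measured 468, 420.4 and 415 in wild-type myeloid progenitors, against 2096, 2286 and 2059 in wild-type LSK cells. Ifitm1 measured 249.8, 210.4 and 177 in wild-type myeloid progenitors, against 1555, 2709.7 and 1823 in wild-type LSK cells. The transcripts of these entry-blocking proteins lay far lower in myeloid progenitors, with log2 differences of -2.31 ± 0.13 and -3.23 ± 0.23 (limma adjusted p = 6.03e-06 and 2.01e-05). Among the GTPases 4 of 6 passed as lower. Gbp2 measured 10.5, 15.9 and 14.7 in wild-type myeloid progenitors, against 80.0, 144 and 83.9 in wild-type LSK cells, a log2 difference of -2.87 ± 0.27 (limma adjusted p = 8.95e-05). Iigp1 measured 0.782, 5.77 and 1.59 in wild-type myeloid progenitors, all at background, against 101, 159 and 100.3 in wild-type LSK cells. It was at least 11.7-fold lower (limma adjusted p = 0.000141). Igtp and Ifi47 also passed with array 2 (log2 differences -1.86 and -0.91) and without it (-1.13 and -0.55), and Irgm1 and Gbp3 did not pass.

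The sensors and enzymes were lower in wild-type myeloid progenitors in 10 of 11 cases, and 5 passed. Oas2 measured 1.62, 3.21 and 2.56 in wild-type myeloid progenitors, below background, and 17.0, 22.0 and 10.4 in wild-type LSK cells. It was at least 1.57-fold lower (limma adjusted p = 0.000377). Ddx58 had means of 16.3 in myeloid progenitors and 55.0 in LSK cells, and Oas1a had 52.2 and 113 in the same order (limma adjusted p = 0.00273 and 0.00944). Trim25, in contrast, differed little, with means of 655 and 814 (limma adjusted p = 0.173). Of the effectors, Rsad2 had means of 20.5 and 143, Ifit1 6.57 and 44.1, and Mx1 4.94 and 20.2, and all 3 passed as lower in myeloid progenitors. Without array 2 Rsad2 passed again, while Ifit1 and Mx1 did not (log2 differences -2.11 and -1.82, limma adjusted p = 0.0569 and 0.0679). Isg20 was the only member called higher. It measured 202, 192 and 191 in wild-type myeloid progenitors, against 93.1, 78.6 and 101 in wild-type LSK cells, a log2 difference of 1.11 ± 0.14 (limma adjusted p = 0.000472). Cxcl10 joined it without array 2, at 1.56 ± 0.28 (limma adjusted p = 0.00344).

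Of the remaining members, Rtp4 measured 10.2, 6.64 and 9.03 in wild-type myeloid progenitors, at background, against 49.1, 115 and 50.2 in wild-type LSK cells, at least 6.55-fold lower (limma adjusted p = 0.000304). Parp14 measured 75, 69.1 and 60.3 in wild-type myeloid progenitors, against 182, 270.0 and 199.9 in wild-type LSK cells (log2 difference -1.66 ± 0.19, limma adjusted p = 0.000315), while its second probe set overlapped (21.8 against 22.8, a log2 difference of -0.07, and 29.5 in LSK cells without array 2). Ifi27 measured 234, 180.3 and 210.5 in wild-type myeloid progenitors, against 414, 464 and 454 in wild-type LSK cells (log2 difference -1.10 ± 0.15, limma adjusted p = 0.000758). Its second probe set had means of 152 in both, and of 322 in wild-type LSK cells without array 2. All 6 tested members of this group lay lower in myeloid progenitors and 5 passed. Irf1 measured 323, 334 and 273 in wild-type myeloid progenitors and 709.7, 719.8 and 592 in wild-type LSK cells, a log2 difference of -1.12 ± 0.15 (limma adjusted p = 0.000722). In FoxO-deficient cells the Irf1 difference was -2.34 ± 0.15, and Cxcl10, whose wild-type means were 69.1 and 34.3, was at least 6.17-fold lower in FoxO-deficient myeloid progenitors (4.44) than in FoxO-deficient LSK cells (57.2). Ifitm3, with means of 576 and 1853 in FoxO-deficient myeloid progenitors and LSK cells, remained lower in the progenitors (-1.69 ± 0.13, limma adjusted p = 2.01e-05).

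**Figure D4:**
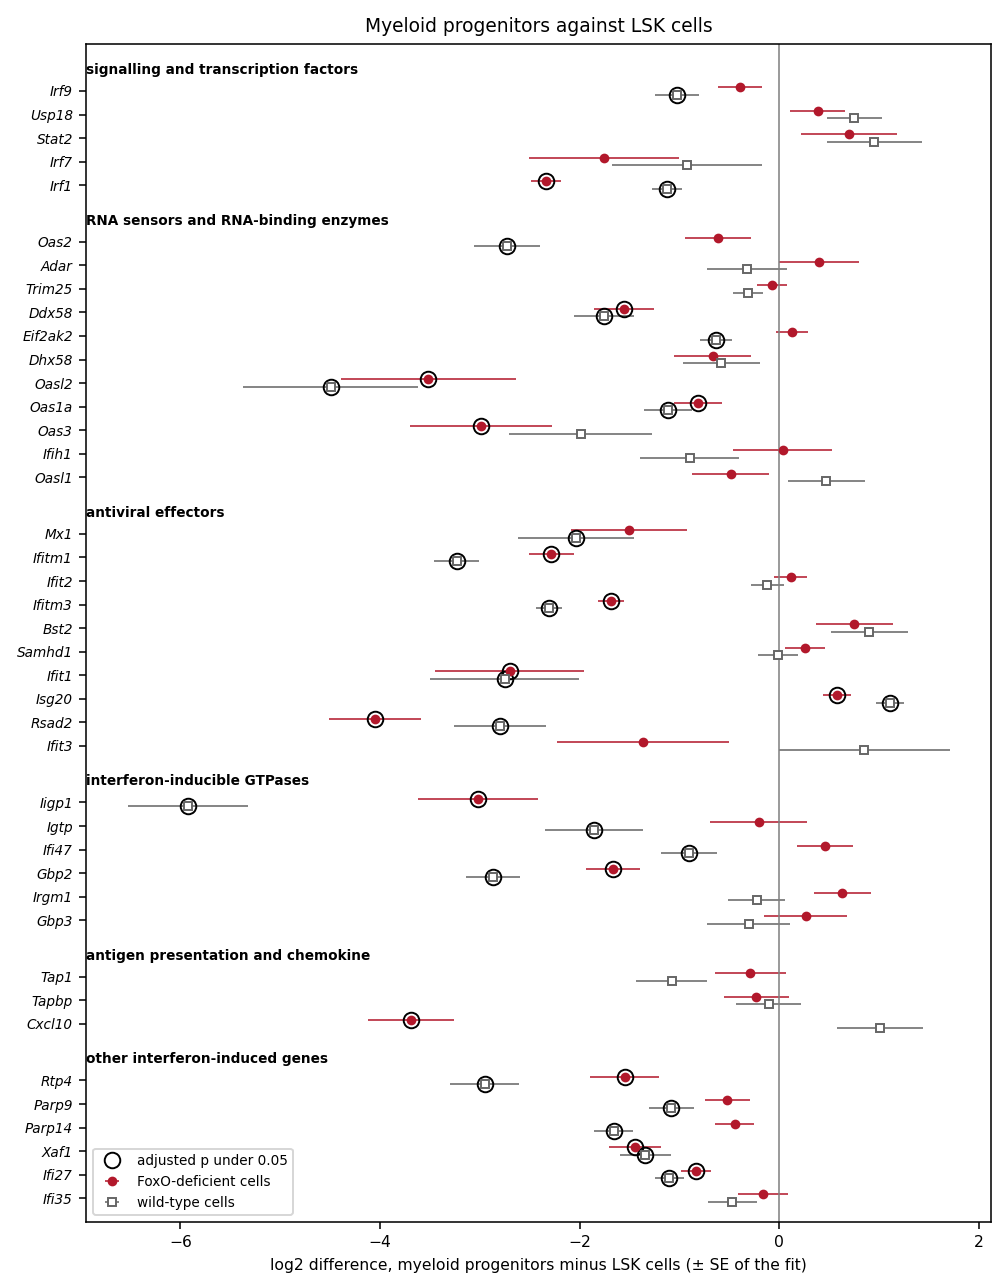
Log2 difference of each of the 41 tested interferon response genes, myeloid progenitors minus LSK cells, in FoxO-deficient cells (filled red circles) and wild-type cells (open grey squares), with bars of 1 standard error and rings where the limma adjusted p is under 0.05. Of the FoxO-deficient differences 15 are ringed below 0, and of the wild-type differences 21 are, with Isg20 ringed above 0 in both.

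**Figure D5:**
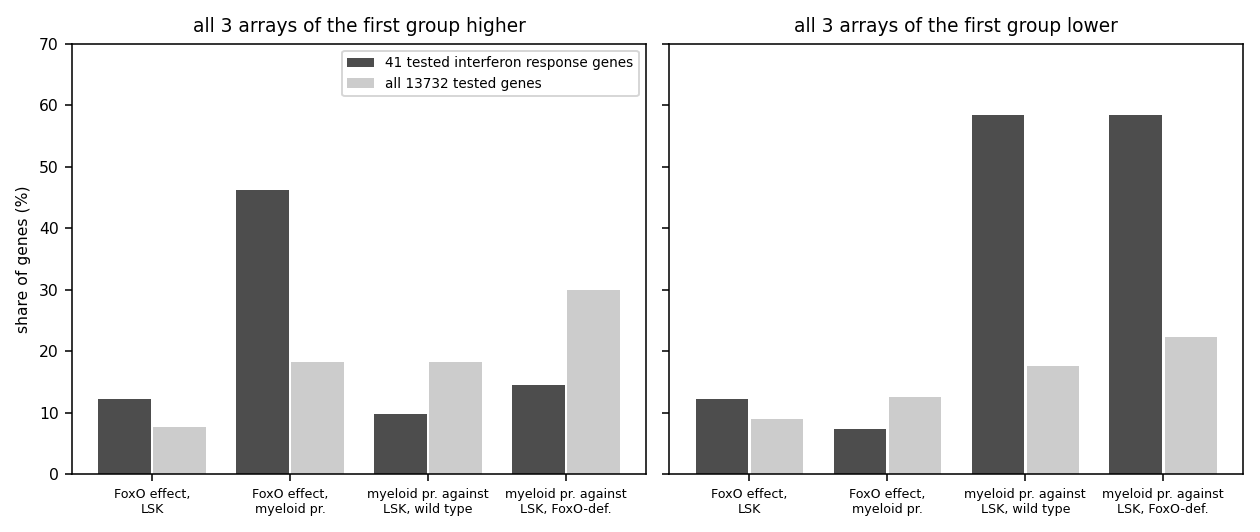
Share (%) of the 41 tested interferon response genes (dark bars) and of all 13732 tested genes (light bars) for which all 3 arrays of the first group lie above (left panel) or below (right panel) all 3 arrays of the second. FoxO-deficient myeloid progenitors were higher for 46.3% of members against 18.2% of all genes, and wild-type myeloid progenitors lower than wild-type LSK cells for 58.5% against 17.6%.

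A wider list of 113 interferon pathway genes that are not members, of which 88 were tested, was set beside these results. In LSK cells none of the 88 was called for FoxO deficiency. In myeloid progenitors 3 were called higher and 1 lower, against 0.757% and 1.09% of all genes. Trim21, a cytosolic antibody receptor and ubiquitin ligase, measured 648, 657 and 671 in FoxO-deficient and 194, 179 and 204 in wild-type myeloid progenitors. It rose by 1.78 ± 0.14 on the log2 scale (limma adjusted p = 0.00015). Irgm2, a GTPase of the same family as Irgm1 and Igtp, measured 81.3, 76.1 and 64.7 in FoxO-deficient and 19.9, 11.3 and 12.6 in wild-type myeloid progenitors. It rose by 2.38 ± 0.37 (limma adjusted p = 0.0098). Casp4 (caspase 11), the sensor of cytosolic endotoxin, measured 192, 180.4 and 168 in FoxO-deficient and 72.6, 68.2 and 87.9 in wild-type myeloid progenitors. It rose by 1.25 ± 0.24 (limma adjusted p = 0.0327), a call that held in 3 of the 12 fits leaving out an array, those without a wild-type LSK array. Socs3, a feedback inhibitor of cytokine receptors, measured 10.6, 8.93 and 9.05 in FoxO-deficient and 317, 262 and 279 in wild-type myeloid progenitors. Only 1 deficient array exceeded the background limit, so no fold is given. Socs3 fell with a limma adjusted p of 0.000245 and was called in all 10 other settings. The same 4 genes were called in the average over both cell types.

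For Trim21 and Socs3 the FoxO effect also differed between cell types, by 1.43 ± 0.20 for Trim21 (limma adjusted p = 0.0108). For Socs3 the difference was negative (limma adjusted p = 0.0146), ran from -4.76 to -2.19 over 9 other settings and was called in 7 of them. In LSK cells Trim21 measured 498, 524 and 479.9 in FoxO-deficient and 341, 443 and 403 in wild-type cells, and Socs3 measured 753, 755 and 691 in FoxO-deficient and 961, 2998 and 690.5 in wild-type cells. Neither passed there, and array 2 held the highest wild-type value of both. Of the 10 interferon genes listed, 3 were tested and none was called. Ifnb1 was below the background limit on every array, Ifna5 on all but 2, and Ifna1 had means of 11.2 in FoxO-deficient and 14.2 in wild-type myeloid progenitors. None of the 8 tested receptor chains and kinases was called in either FoxO comparison. Ifnar1 had means of 125 in FoxO-deficient and 121 in wild-type myeloid progenitors, and Ifngr1, the interferon gamma receptor chain, had 154 and 103. Between the cell types in wild-type cells, 26 of the 88 pathway genes passed as lower in myeloid progenitors (11.5% of all genes did) and 6 as higher (9.95% did). In LSK cells the 4 pathway genes of smallest p were Tor3a, Ptpn2, Ifi204 and Ciita, with log2 changes of -0.81, 0.47, 0.84 and -1.65, and none passed.

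Markers of other cells were read beside the myeloid progenitor result. Summed intensities of granulocyte-monocyte progenitor markers (7 of 8 measured) lay between 18033 and 18661 on FoxO-deficient and between 14754 and 15140 on wild-type myeloid progenitor arrays, with no gene called. Erythroid and megakaryocyte markers (7 of 7) summed to between 3410 and 3461 on FoxO-deficient and between 4771 and 4944 on wild-type arrays, again with none called. Neither sum overlapped between the groups, and on FoxO-deficient arrays the granulocyte-monocyte sum was higher and the erythroid and megakaryocyte sum lower. In the granulocyte-monocyte list, Mpo, Elane, Prtn3, Ctsg and Ms4a3 had higher means in FoxO-deficient cells. Fcgr3 and Csf1r had lower ones (110 against 147, and 144 against 229). Neutrophil markers (7 of 8) summed to between 6143 and 6450 on FoxO-deficient and between 4386 and 4518 on wild-type arrays, with Camp, a granule peptide, called higher. Monocyte and macrophage markers (8 of 9) summed to between 698 and 783 on FoxO-deficient and between 931 and 1055 on wild-type arrays, and Cd14, the endotoxin co-receptor, fell to 12.7, against 100.1 in wild-type cells. T and NK cell markers (11 of 12) summed to between 2339 and 2676 on FoxO-deficient and between 1720 and 1809 on wild-type arrays. Nearly all of that sum was Nkg7, with means of 2403 and 1703, while Cd3e, Cd3d and Cd3g, which define T cells, were near or below background (means 2.48, 3.12 and 5.83 in FoxO-deficient and 3.90, 4.28 and 3.51 in wild-type cells).

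Plasmacytoid dendritic cells, the main producers of type I interferon, had markers (8 of 9) that summed to between 1228 and 1581 on FoxO-deficient and between 1518 and 1600 on wild-type myeloid progenitor arrays. Tcf4 made up nearly all of that sum, with means of 1321 and 1441 in the same order. Siglech, the defining marker of these cells, was near background in all groups, with means of 6.34 in FoxO-deficient and 4.62 in wild-type myeloid progenitors. B and plasma cell markers (10 of 11) summed to between 494 and 528 on FoxO-deficient and between 338 and 479 on wild-type arrays. Jchain, which joins secreted antibodies, was called higher (41.8 against 3.34), while Ms4a1 and Pax5, which define B cells, were at or below background. Of the same list, Cd79b, a B cell receptor chain, had means of 122 in FoxO-deficient and 64.4 in wild-type cells, and Sdc1, a plasma cell marker, had 47.0 and 148, and neither was called. In LSK cells Ighm, the antibody heavy chain, measured 458 in FoxO-deficient and 69.2 in wild-type cells, which did not pass (limma adjusted p = 0.159). Over all the marker lists, Camp was called higher in FoxO-deficient than in wild-type LSK cells (421 against 200, limma adjusted p = 0.0311). Ccr2, Tek and Car1 were called lower there (10.7 against 67.4, 191 against 466, and 94.2 against 174, limma adjusted p = 0.000936, 0.0184 and 0.0457). The part of these cell mixtures in the interferon gene differences was not tested. LSK and stem cell markers (10 of 12) summed to between 1759 and 1926 in FoxO-deficient and between 1545 and 1685 in wild-type myeloid progenitors, without overlap and far below the 6544 to 7305 of the LSK arrays. The sums of these markers lay on the same side as the interferon genes in both comparisons. Most of the sum in myeloid progenitors was Cd34 and Kit, the latter a marker of both sorted populations. Their means were 952 and 406 in FoxO-deficient and 840 and 352 in wild-type myeloid progenitors. Of the list, Tek, a receptor of stem cells, was called lower in FoxO-deficient myeloid progenitors (42.0 against 90.7, limma adjusted p = 0.00853). Flt3 and Esam also had lower means there (29.3 against 36.4, and 2.86 against 8.26), and the other measured markers had higher or nearly equal ones.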

How the data were processed

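RNA of 12 sorted bone marrow samples was read on arrays after NuGEN Ovation amplification, per the labels' protocols. The deposited values are intensity values on a linear scale, 1 per probe set. Which software summarised them the sources used here do not give. Array medians ran from 8 to 13.5, and no pair of arrays shared more than 1.55% of its values.

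An offset of 0.6, the 10th percentile of all values, was added before taking log2, and the arrays were quantile normalized. Changes are on this log2 scale, which can overstate changes near background. Of 45101 probe sets, 64 are controls, 34945 carry 1 gene symbol in the platform annotation, 932 several and 9160 none, and 34741 symbols were updated through the gene ID in a RefSeq table of GRCm38.p6. Probe sets above the 40th percentile on at least 3 arrays were kept, and the brightest stood for its gene, which left 13732 genes.

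With limma 3.58.1 (R 4.3.3), 1 fit over all arrays gave each group its mean and left 8 residual degrees of freedom. Tests are two-sided, errors are standard errors of the fit, and a gene is called at a Benjamini-Hochberg adjusted p under 0.05. "At least" folds set the brighter group against the background limit where the dimmer one is below it on all 3 arrays, and no fold is given where it exceeds it on only 1. Genes are given with every array's value if called for FoxO, among the 10 of smallest p in a FoxO comparison, or among the 10 called of smallest p between wild-type cell types. The members and lists were chosen with earlier results of these data known. The scripts were tested on simulated data. Precision is limited by 3 arrays a group. Because the spread between arrays may be technical, the errors and p-values may not measure variation between mice.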

Additional observations from a re-analysis of the deposited data

Results flagged for a closer look

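The FoxO effect differed between the cell types by an interaction test for 4 genes, each given as the log2 effect in myeloid progenitors minus that in LSK cells. Among the members, Cxcl10 differed by -4.70 ± 0.61 (limma adjusted p = 0.00647), from effects of -3.96 in myeloid progenitors and 0.74 in LSK cells. Its deficient myeloid progenitor arrays were all below background, so these sizes depend on the scale: over the other settings the difference ran from -5.33 to -1.87 and the myeloid progenitor effect from -4.12 to -1.49. Irf1 differed by -1.22 ± 0.21 (limma adjusted p = 0.0323), from effects of -1.04 and 0.18 in the same order. The Irf1 call held in 1 of the 12 fits that left out an array, the one without wild-type LSK array 2. It held in 6 of the 9 other settings. Among the wider pathway genes, Socs3 differed by -4.13 ± 0.61 (limma adjusted p = 0.0146), from effects of -4.91 and -0.78, with the deficient myeloid progenitors close to background and the difference between -4.76 and -2.19 over the other settings. Trim21 differed by 1.43 ± 0.20 (limma adjusted p = 0.0108), from effects of 1.78 and 0.35.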

How the results depend on the processing

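No member was called for FoxO deficiency in LSK cells under any alternative, and the LSK median was 0.18 with the mean of a gene's kept probe sets, under which Parp14 turned to 0.49 (limma adjusted p = 0.403). In myeloid progenitors 5 members were called with an offset of 32, with a 60th-percentile filter or with only the groups compared (3.69%, 4.16% and 4.69% of all genes were), 17 with array weights (8.96%), and 2 to 13 when an array was left out, 13 being without wild-type LSK array 2 (8.88%). In the chosen setting 1.84% of all genes were. For the difference of effects, 1 member was called with 75th-percentile scaling, no filter or each probe set adjusted on its own (0.757%, 0.412% and 0.619% of all genes were). The calls were 5 with array weights (3.2% of all genes) and 1 to 6 when an array was left out, 6 being without wild-type LSK array 2 (3.51%). When an array was left out the median ran from 0.26 to 0.44. For the average, 1 member was called with 75th-percentile scaling or each probe set on its own (1.72% and 1.25% of all genes were). Without a filter 0 were called by limma (0.846% of all genes were), while in the chosen setting 8 members were higher and 2 lower at an unadjusted p under 0.05. The calls were 4 with the 60th-percentile filter (4.1% of all genes) and 9 with array weights (6.43%). They were 0 to 8 when an array was left out, 8 being without wild-type LSK array 2 (6.93%). Between wild-type cell types 13 members were called with only the groups compared (8.01% of all genes), and the median was -0.82 with an offset of 16, -0.69 with 32, -0.86 with array weights and -1.15 to -0.86 when an array was left out. Between FoxO-deficient cell types the median was -0.66 with 75th-percentile scaling, -0.36 and -0.27 with offsets of 16 and 32, and -0.69 to -0.43 when an array was left out. Apart from fewer or more genes and arrays entering the fit, the cause of these shifts was not tested. The non-overlap counts and means without array 2 were added after seeing the data.

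Counted over each named gene, comparison and other setting, 948 results kept the direction and the side of the threshold. Another 28 gained a call, 88 lost one and 1 turned the direction. No paired analysis was possible because no replicate number is shared between groups. Signals within a few units of the background limit, as for Oas2, Iigp1, Irf7 and Ifit3, limit what these arrays can resolve.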
